A study of Mus musculus with 29 samples.

Results

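The genes described here encode 8 pore-forming subunits of voltage-gated potassium channels, namely Kcnd2, Kcnd3, Kcnh7, Kcnf1, Kcna1, Kcna2, Kcnc1 and Kcnq3. They were taken as a list of symbols and mapped to their Ensembl identifiers, so that they make up 8 of the 48709 identifiers in each of 3 tables of read counts. All 8 passed the filter on low counts in every experiment. The study behind these tables inhibited the microRNA miR-99b-5p with anti-miR-99b, a locked nucleic acid (LNA) oligonucleotide, and compared it with sc-control, a scrambled LNA, in 29 RNA-seq libraries.

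In the prefrontal cortex (PFC) experiment, male C57BL/6J mice of 3 months were injected into the PFC with lipid nanoparticles that carried either LNA (3 mice each), and tissue of 1 side was collected on day 5. In the co-culture experiment, microglia from CD1 pups of postnatal day 1 were exposed to either LNA for 48 h and transferred to cortical neurons of CD1 embryos of day 17.5, and RNA of the whole co-culture was taken after a further 48 h (7 libraries for anti-miR-99b and 8 for sc-control). The LNA was thus given to the microglia, before they met the neurons. In the microglia experiment the same kind of microglia were kept alone with either LNA for 48 h (4 libraries each). Each PFC library is 1 mouse. For the cultures, the study's methods describe replicates in general as biological samples but do not say that the libraries came from separate preparations, so their p-values may measure technical spread only. In bulk RNA, fewer cells of a type and less RNA per cell cannot be told apart.

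Voltage-gated potassium channels open when a neuron depolarises and let potassium ions leave the cell, which ends the action potential and sets how soon the next can follow. A channel is a ring of pore-forming subunits, and which subunits a neuron makes decides how fast its channels open and close and where on the cell they sit. Kcnd2 and Kcnd3 encode Kv4 subunits, which carry the fast A-type current of dendrites. Kcna1 and Kcna2 encode Kv1 subunits, which sit along axons and hold back repetitive firing. Kcnc1 encodes a Kv3 subunit of fast-spiking neurons. Kcnq3 contributes to the M-current, which is held in check by acetylcholine, Kcnh7 encodes an Erg-type subunit, and Kcnf1 encodes a modifier subunit that forms no channel by itself.

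The members share the stretch of the pore that selects potassium over sodium. The lines give 30 bases of each coding sequence, in the direction of the transcript, with the codons of the selectivity filter in capitals (GENCODE M21 transcripts, GRCm38).
Kcnd2: atgacaacactgGGGTATGGCgacatggta
Kcnd3: atgactacactgGGATATGGAgacatggtg
Kcna1: atgaccactgtgGGATACGGTgacatgtac
Kcna2: atgacaactgtaGGCTATGGAgacatggtt
Kcnc1: atgacgacactgGGCTATGGAgacatgtat
Kcnf1: atgaccacagtgGGCTATGGTgacatctac
Kcnq3: ctggccaccattGGTTATGGAgacaagaca
Kcnh7: ctaaccagtgtaGGATTTGGAaatgtgtct
Of the 30 bases, 26 were the same in Kcnd2 and Kcnd3 and 26 in Kcnf1 and Kcna1, whereas Kcnd2 and Kcnh7 shared 14. The Kv1 genes Kcna1 and Kcna2 shared 22, so these counts do not follow the families. Kcnh7 stands apart in the filter itself, where its middle codon is TTT, for phenylalanine, and the other members have a tyrosine codon. The stretch lies on the plus strand at chr3:107105218-107105247 for Kcna2 and chr7:46427967-46427996 for Kcnc1. On the minus strand it lies at chr6:126642219-126642248 for Kcna1, chr12:17175052-17175081 for Kcnf1, chr15:66023722-66023751 for Kcnq3 and chr2:62777334-62777363 for Kcnh7. In both Kv4 genes, on the plus strand, it is cut by an intron, with the parts at chr6:21217400-21217413 and chr6:21714135-21714150 for Kcnd2 and at chr3:105459908-105459921 and chr3:105658611-105658626 for Kcnd3.

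The genes differ in size. Kcna1 (chr6:126640397-126646384, minus strand), Kcnf1 (chr12:17172100-17176888, minus strand) and Kcna2 (chr3:107101146-107115005, plus strand) are compact. Kcnc1 (chr7:46396497-46438704) and Kcnd3 (chr3:105452330-105674002), both on the plus strand, and Kcnq3 (chr15:65986387-66286642, minus strand) are longer. Kcnh7 (chr2:62693414-63184287, minus strand) and Kcnd2 (chr6:21215503-21729805, plus strand) are the longest. Their annotated exons add up to between 4780 bases (Kcna1) and 15226 bases (Kcnh7), so that each member was longer than the median gene tested in the PFC (4073 bases). Exons of Kcnd3 overlap those of its antisense gene Kcnd3os, and exons of Kcnh7 overlap those of Gca on the opposite strand. The kit used does not mark strand, so reads from the shared bases cannot be assigned to either gene.

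Mature miR-99b-5p is the target of the inhibitor. It is shown with its seed, bases 2 to 8, in capitals, since the seed is what pairs with a target transcript (RefSeq, GRCm38.p6, chr17:17830194-17830215, plus strand).
mmu-miR-99b-5p: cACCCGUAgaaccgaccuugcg
The longest annotated 3′ untranslated region (3′UTR) of each member was searched for the letters TACGGGT, which pair with the 7 bases of the seed, and for the shorter ACGGGT, which is part of them. Only the strand of the transcript was searched. None of the 8 members held either, although the 3′UTRs of Kcnh7, Kcna2 and Kcnq3 were 9532, 9401 and 8784 bases long. Of 15110 genes tested in the PFC or the co-cultures with an annotated 3′UTR, 1.32% held the longer and 6.7% the shorter match. The search says only that these letters are not in these stretches.

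Between 21324156 and 37901110 reads per library were counted on genes, and the counts of replicates differed by more than sampling noise in each group. The unit of a level is CPM (counts brought to a common library size with edgeR's TMM factor) or, between genes, RPKM, which also divides by the exon length. Marker lists were set beside the cell type labels. Each of the 16 neuron, 12 microglia and 10 astrocyte markers was detected in at least 1 library of every group. This held in cultured microglia too, so detection alone does not tell the cell types apart. The summed level of the 12 microglia markers was 12625 to 13217 CPM in cultured microglia, 114 to 152 CPM in co-cultures and 548 to 793 CPM in the PFC.

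To describe the transcript level of each member without inhibition, the sc-control libraries were compared. Each of the 8 members was higher in the PFC and in the co-cultures than in cultured microglia, in every library. The share of all genes with this pattern was not counted, so it is not shown to be particular to the members. In the PFC the modifier subunit gene Kcnf1 led, at 54.1 ± 1.62 RPKM (SD, n = 3), and it ranked 1 among the 40 voltage-gated potassium channel genes listed. Kcna2 (24.8 ± 0.172 RPKM) and Kcnc1 (20.6 ± 0.275 RPKM) came next, followed by Kcnd2 (16.5 ± 0.530), Kcnq3 (14.0 ± 0.926), Kcna1 (11.6 ± 0.169), Kcnd3 (9.93 ± 0.190) and Kcnh7 (8.75 ± 0.827). The ranges of neighbours in this order did not overlap in the PFC.

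In the co-cultures the order was another. The Kv4 gene Kcnd2 led the members at 17.8 ± 0.848 RPKM (n = 8), before Kcnf1 (15.2 ± 0.57) and Kcnd3 (15.0 ± 0.373), whose ranges overlapped. Kcnq3 (11.3 ± 0.901), Kcnc1 (9.07 ± 0.276) and Kcna2 (7.07 ± 0.291) were in the middle. Kcna1 (2.99 ± 0.148) and Kcnh7 (2.94 ± 0.238) were last, with overlapping ranges. The 8 members together made up 34.5% of the summed RPKM of the 40 listed genes in the PFC and 35.9% in the co-cultures.

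**Figure D1:**
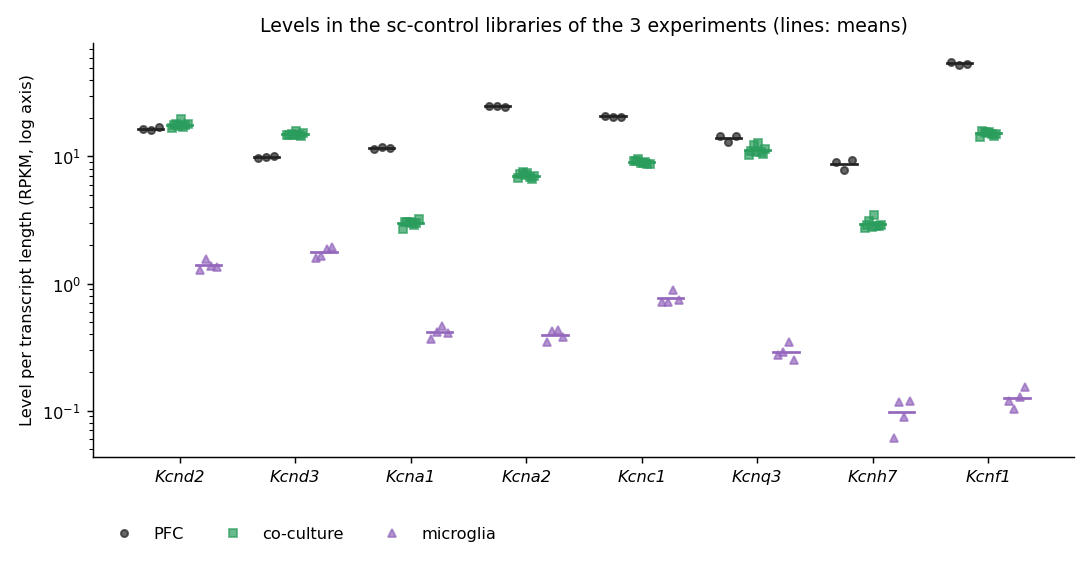
Level of each member in RPKM (log axis) in the sc-control libraries of PFC tissue (n = 3), co-cultures (n = 8) and cultured microglia (n = 4), with 1 point per library and a line at the mean. The Kv4 genes Kcnd2 and Kcnd3 sit at or above the PFC level in co-culture, the other 6 sit below it, and microglia are lowest for every gene.

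The test between PFC tissue and co-cultures was made over both tables. Of all 17678 genes tested, 20.4% were higher in the PFC and 14.7% higher in the co-cultures, by an adjusted p under 0.05 and a log2 fold change (log2FC) beyond 1. By the same limits 5 of the 8 members were higher in the PFC and 0 in the co-cultures. Both Kv1 genes were among them: the level of Kcna1 was 3.92-fold higher in the PFC (log2FC −1.97 in co-culture against PFC, SE 0.042, adjusted p = 4.28e-20, edgeR), and that of Kcna2 was 3.53-fold higher (log2FC −1.82, SE 0.033). The modifier Kcnf1 (3.59-fold), the Erg-type Kcnh7 (3.00-fold) and the Kv3 gene Kcnc1 (2.29-fold) completed the 5 (all folds from the fit). The libraries of the groups did not overlap for any of them. The exact permutation test of the mean level gave p = 0.00606 for each of these 5, the smallest that 3 against 8 libraries allow. Most of the listed voltage-gated channel genes had no overlap and this same p, so neither is particular to the members. The share over all genes was not counted.

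The Kv4 genes and Kcnq3 did not pass the limit on size. Kcnd3 was 1.5-fold higher in the co-cultures (log2FC 0.58, SE 0.032, adjusted p = 3.43e-13, edgeR), with no overlap between the groups. Kcnd2 differed by 1.07-fold in the same direction, with overlapping groups, and Kcnq3 was 1.25-fold higher in the PFC. The experiments also differ in strain, age, dissection and culture, and these cannot be told apart in the comparison. Parvalbumin (Pvalb), the marker of fast-spiking interneurons, was at 42.4 to 48.5 CPM in the PFC and at 0.279 to 0.566 CPM in the co-cultures. The myelin gene Mbp was at 2514 to 2653 CPM and 17.1 to 21.2 CPM, and the part of either cell type in the channel levels was not tested.

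Among the other listed channel genes the largest differences toward the PFC were in Kcng4, a modifier subunit, Kcnq1 and Kcnh4. Kcng4 was at 1.6 RPKM in the PFC and 0.0433 RPKM in the co-cultures (log2FC −5.19, SE 0.198), where it had 2 to 9 reads per library. Kcnq1 had 1 to 4 reads per library in the co-cultures (log2FC −2.98, SE 0.278). Kcnq1 shares its locus with the antisense RNA Kcnq1ot1, so its counts are uncertain. Kcnh4 was at 5.75 against 1.29 RPKM. Toward the co-cultures the largest were Kcnh8 (0.389 against 0.0601 RPKM), the Kv1 gene Kcna3 (7.21 against 3.98 RPKM) and Kcng3 (0.732 against 0.424 RPKM), of which Kcnh8 passed the limit on size.

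Cultured microglia held little of these transcripts. Kcnd3 (1.76 ± 0.178 RPKM, n = 4) and Kcnd2 (1.40 ± 0.120 RPKM) were highest, Kcnc1 was at 0.763, and Kcna1 (0.412), Kcna2 (0.396), Kcnq3 (0.290), Kcnf1 (0.125) and Kcnh7 (0.0966) were lower. Each of the lower ones overlapped its neighbour except between Kcnq3 and Kcnf1. The 16 neuron markers summed to 186 to 194 CPM in these sc-control cultures, against 9755 to 10062 CPM in the co-cultures, and the part of such cells in the channel reads was not tested.

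The next comparison asked whether the members differed in the PFC between mice given anti-miR-99b and mice given sc-control. The log2FC of all 8 members was below 0, between −0.30 (Kcnh7) and −0.003 (Kcnc1, which was at 0.035 with upper-quartile factors), with a median of −0.15 beside 0.003 over all 17364 genes tested. None passed the threshold of an adjusted p under 0.1 and a log2FC beyond 0.2, by which 0.0864% of all genes were called, 15 higher and 0 lower with edgeR. That count moved with the settings, to 76 higher and 8 lower with DESeq2, 192 and 92 with a factor of unwanted variation (RUVs) and 297 and 115 with no filter on low counts. At an unadjusted p under 0.05, 3 members (Kcnd2, Kcnh7 and Kcnf1) and 2.47% of all genes were lower. These same 3 genes stand in the list of lower genes that the study made from these libraries, so their direction is no independent evidence.

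The A-type gene Kcnd2 had the lowest p-value of the members. It was at 72.0, 75.3 and 76.4 CPM in anti-miR-99b mice 1, 2 and 3, and at 87.6, 86.7 and 92.2 CPM in sc-control mice 2, 3 and 4. Every anti-miR-99b mouse lay below every sc-control mouse. The mean was 74.6 ± 2.27 CPM against 88.9 ± 2.97 CPM (SD, n = 3 each), a level 16.1% lower (log2FC −0.25, SE 0.064, adjusted p = 0.357, edgeR). Within lane 6 (2 against 2 mice) the log2 difference was −0.24 and within lane 7 (1 against 1) it was −0.27. An exact permutation test gave p = 0.1, the smallest that 3 against 3 mice allow.

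Its relative Kcnd3 was at 87.6, 89.6 and 99.4 CPM in anti-miR-99b mice 1, 2 and 3 and at 97.8, 99 and 102 CPM in the controls. Mice 1 and 2 lay below the controls and mouse 3 lay among them (log2FC −0.11, SE 0.070, adjusted p = 0.691, edgeR).

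The modifier subunit gene Kcnf1 was at 256, 241 and 224 CPM in anti-miR-99b mice 1, 2 and 3 and at 279, 265 and 269 CPM in the controls. Here again the groups did not overlap, with mouse 3 lowest (log2FC −0.17, SE 0.069, adjusted p = 0.648, edgeR). Kcnd2 and Kcnf1 were the 2 members whose groups did not overlap with the anti-miR-99b mice lower, as was the case for 5.81% of all genes tested.

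The Erg-type gene Kcnh7 had the largest difference and the widest spread. It was at 93.7, 114 and 132 CPM in anti-miR-99b mice 1, 2 and 3 and at 144, 125 and 149.5 CPM in the controls, with the effect that mouse 3 overlapped the controls (log2FC −0.30, SE 0.117, adjusted p = 0.648, edgeR). Without anti-miR-99b mouse 1 its log2FC was −0.18, and without mouse 3 it was −0.42.

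The Kv1 and M-current genes had smaller differences, which moved with single mice. Kcna1 was at 51.5, 46.4 and 57.8 CPM in anti-miR-99b mice 1, 2 and 3 and at 57.3, 59.2 and 58.1 CPM in the controls (log2FC −0.16, SE 0.084). Kcnq3 was at 180, 194 and 219 CPM (179.7 in mouse 1) and at 223, 199.6 and 225 CPM (log2FC −0.13, SE 0.085). Kcna2 was at 278, 292 and 308 CPM and at 307, 311 and 307 CPM (log2FC −0.08, SE 0.065). In these 3 genes anti-miR-99b mouse 3 lay within the range of the controls and mice 1 and 2 lay below it. Kcnc1, the Kv3 gene, was at 209, 205 and 198 CPM and at 207, 202 and 204 CPM, with no side of its own (log2FC −0.003, 95% interval −0.12 to 0.11). Without anti-miR-99b mouse 1 the log2FC was −0.06 for Kcnq3, −0.04 for Kcna2 and −0.07 for Kcnd3, and without mouse 3 it was −0.21, −0.12 and −0.17. That of Kcna1 was −0.09 without mouse 2 and −0.25 without mouse 3.

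**Figure D2:**
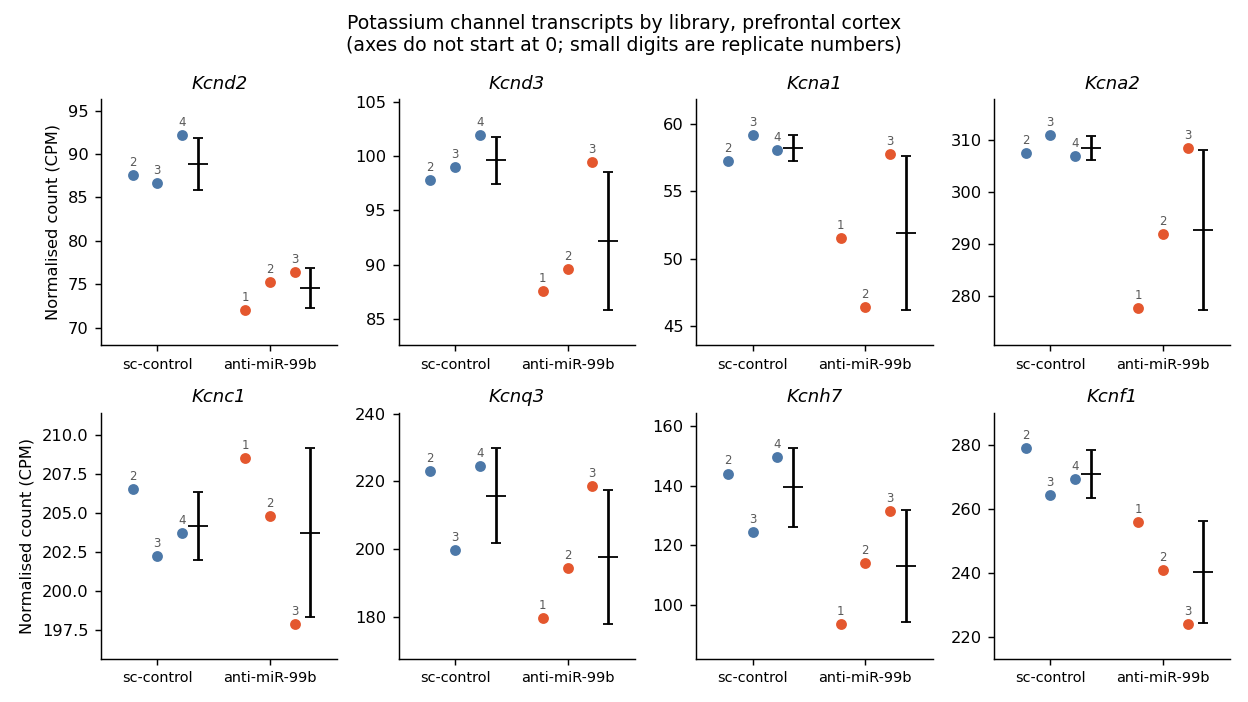
Normalised counts (CPM) of the members in each PFC library by treatment, with the replicate number above each point and the mean ± SD in black (n = 3 per group). The groups are apart for Kcnd2 and Kcnf1, anti-miR-99b mouse 3 lies among the controls for Kcnd3, Kcna1, Kcna2, Kcnq3 and Kcnh7, and the groups overlap for Kcnc1.

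The rest of the potassium channel genes were counted by list. Of 36 voltage-gated pore subunit genes tested, 24 had a log2FC below 0 (median −0.07), and of the 28 that are no members 16 did (median −0.02). Of 13 genes of auxiliary subunits, which steer the channels to the membrane and change their speed, 10 were below 0 (median −0.11), and of 31 inward rectifier, two-pore and calcium-activated or sodium-activated channel genes 19 were (median −0.04). No gene of these lists passed the threshold, and 49.4% of all genes tested were below 0. The lowest p-values beside Kcnd2 were those of Kcnj2, an inward rectifier (16.7 ± 2.85 against 22 ± 1.42 CPM, log2FC −0.39, SE 0.121, adjusted p = 0.535, edgeR), and Kcnh7.

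Other measures were also compared between the treatments in the PFC, and the ranges of the groups overlapped in each. Of the 12 microglia markers 11 had a log2FC above 0 (median 0.26, 0 past the threshold), with a summed level of 718 to 793 CPM in anti-miR-99b mice and 548 to 767 CPM in controls. Of the 16 neuron markers 11 were below 0, with a median of −0.009 and a sum of 15927 to 17421 CPM against 16685 to 17383 CPM. Across genes, the deviation of a library from the mean of its experiment had a correlation with log10 gene length of −0.107, −0.216 and 0.141 in anti-miR-99b mice 1, 2 and 3 and of 0.00384 to 0.15 in the controls. With this length trend removed, the log2FC of Kcnd2 was −0.24, that of Kcnh7 −0.24, that of Kcnf1 −0.17 and that of Kcna1 −0.16. Each of these lay nearer to 0 than with the main settings, where Kcnh7 was at −0.30, though only slightly for Kcnf1 and Kcna1. Kcnd3 at −0.07, Kcnq3 at −0.07 and Kcna2 at −0.02 also came nearer to 0, and Kcnc1 crossed it, at 0.04.

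The co-cultures asked whether channel genes of neurons differ when the microglia beside them have received anti-miR-99b. Again the log2FC of all 8 members was below 0, between −0.13 (Kcna2) and −0.03 (Kcnf1), with a median of −0.06 beside 0.003 over the 16193 genes tested. A log2FC below 0 in both experiments, which all 8 members had, was found in 25.1% of the 15567 genes tested in both. The members were chosen with earlier results of these data known, so their shared direction is no independent evidence. By an adjusted p under 0.05 and a log2FC beyond 0.1, 1 member, Kcna2, was called lower, where 0.556% of all genes were called lower and 0.846% higher. At an unadjusted p under 0.05, 3 members (Kcna2, Kcnc1 and Kcnd3) and 6.81% of all genes were lower. Kcna2 is also on the lower list that the study made from these libraries.

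The axonal Kv1 gene Kcna2 was at 74.7 CPM at the lowest, 80.1 at the median and 84.4 at the highest in the 7 anti-miR-99b co-cultures, and at 81.9, 87.6 and 92.6 CPM in the 8 sc-control co-cultures. The ranges overlapped, as they did for each member in the co-cultures (groups lay apart with anti-miR-99b lower in 0.278% of all genes), but 5 of 7 anti-miR-99b libraries lay below every control and 6 of 8 controls lay above every anti-miR-99b library. The mean fell from 87.4 ± 3.62 to 79.6 ± 3.54 CPM (SD), and the fitted level fell by 8.82% (log2FC −0.13, SE 0.030, adjusted p = 0.0211, edgeR). The exact two-sided permutation test of the mean gave p = 0.00155. Within the 4 lanes that held both groups the log2 difference was −0.10, −0.10, −0.11 and −0.13.

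The Kcna2 call depended on the processing. With the lane as a block the log2FC was −0.11 (adjusted p = 0.0595, edgeR), and with the trend over gene length removed it was −0.09 (adjusted p = 0.15). Without anti-miR-99b library 3, 10 or 11 or sc-control library 4 the adjusted p was 0.0519, 0.0585, 0.0651 and 0.0535 in this order, also from edgeR. Within the co-cultures the correlation of a library's deviation with log10 gene length was −0.211 to 0.0766 in the anti-miR-99b group, below 0 in 6 of 7 libraries, and −0.0637 to 0.271 in the controls, below 0 in 3 of 8.

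**Figure D3:**
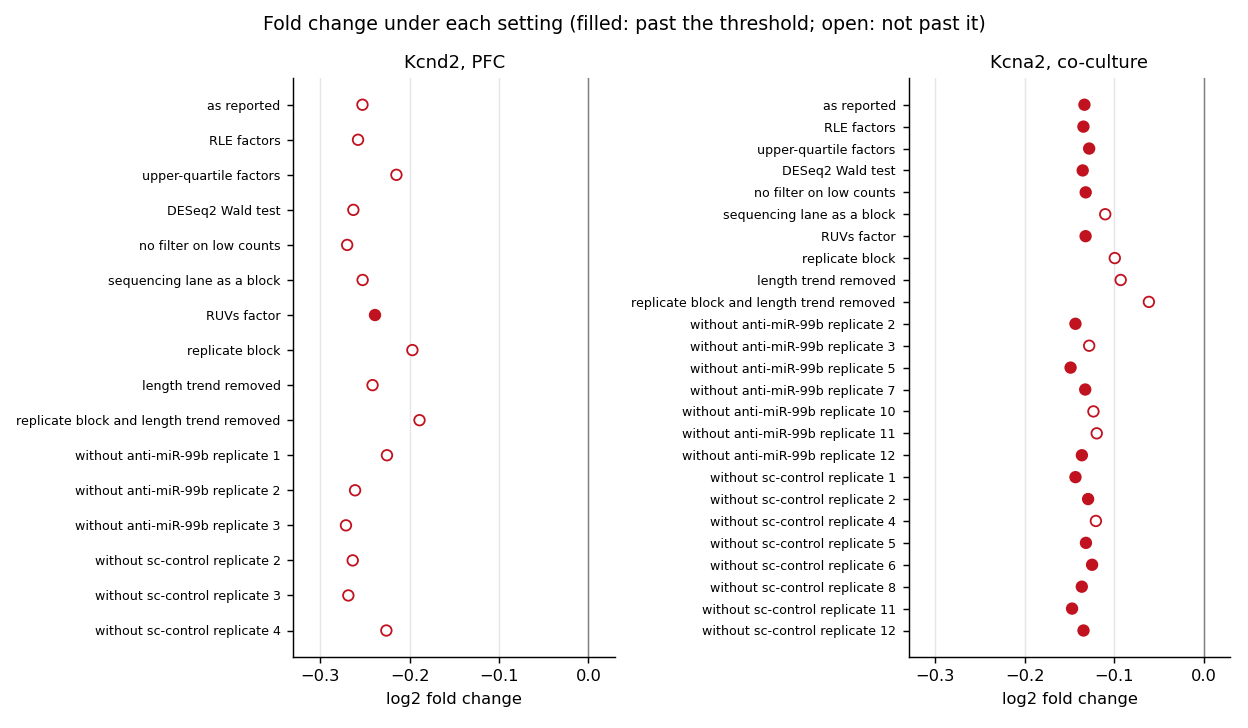
Log2 fold change of Kcnd2 in the PFC and of Kcna2 in the co-cultures under each setting of the analysis, with a filled point where the gene passed the threshold of its experiment. Kcnd2 lies between −0.27 and −0.19 and passed with a RUVs factor, and Kcna2 lies between −0.15 and −0.06 and was not called with a lane or replicate block, without the length trend, or without 1 of 4 libraries.

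The remaining members did not pass in the co-cultures. Kcna1, the other Kv1 gene, was at 12.5, 14.4 and 17.6 CPM (lowest, median and highest) with anti-miR-99b and at 13.4, 14.9 and 15.9 CPM with sc-control, ranges of which the second lay inside the first (log2FC −0.03, SE 0.055). The Kv3 gene Kcnc1 was at 73.0, 85.3 and 91.5 CPM and at 86.1, 88.9 and 93.8 CPM (log2FC −0.08, SE 0.034, adjusted p = 0.315, edgeR). The M-current gene Kcnq3 was at 150.0, 157 and 189 CPM and at 158, 168 and 196 CPM (log2FC −0.09, SE 0.047, adjusted p = 0.419). The medians were lower with anti-miR-99b in each of these, and the groups overlapped.

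Of the Kv4 genes, Kcnd3 was at 137, 143 and 151 CPM with anti-miR-99b and at 144, 148 and 157 CPM with sc-control (log2FC −0.05, SE 0.024, adjusted p = 0.375, edgeR). Kcnd2 was at 88.4, 91.9 and 100.4 CPM and at 90.2, 94.8 and 105 CPM (log2FC −0.04, 95% interval −0.10 to 0.02). Kcnh7, at 39.6, 44.5 and 50.4 against 43.1, 45.2 and 54.7 CPM (log2FC −0.07, SE 0.048), and Kcnf1, at 69.5, 74 and 78 against 70.9, 75.8 and 79.5 CPM (log2FC −0.03, SE 0.028), overlapped through most of their range. Without sc-control library 6 the log2FC was −0.03 for Kcnh7 and −0.02 for Kcnd2, without anti-miR-99b library 10 it was −0.01 for Kcnf1, and without anti-miR-99b library 7 it was −0.05 for Kcnc1. With the length trend removed that of Kcnh7 was −0.01, that of Kcnd3 −0.02 and that of Kcnq3 −0.04.

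**Figure D4:**
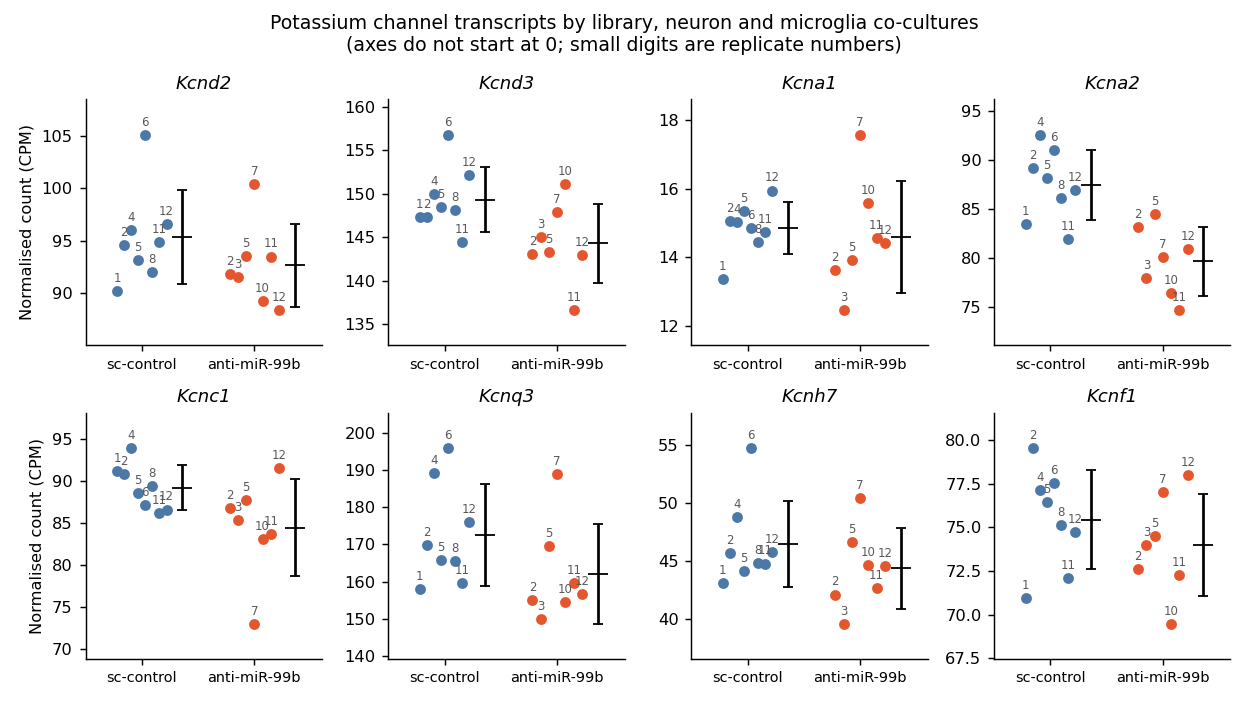
Normalised counts (CPM) of the members in each co-culture library by treatment, with replicate numbers above the points and the mean ± SD in black (n = 7 anti-miR-99b, n = 8 sc-control). Kcna2 is the gene with the least overlap, and sc-control library 6 and anti-miR-99b library 7 stand highest of their groups for Kcnd2, Kcnh7 and Kcnq3.

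In the wider lists, 27 of 35 voltage-gated pore subunit genes had a log2FC below 0 in the co-cultures (median −0.04), as had 6 of 11 auxiliary subunit genes and 16 of 26 other potassium channel genes, beside 48.4% of all genes. Of the 27 pore subunit genes that are no members, 19 were below 0 (median −0.03). Kcna2 was the 1 gene of these lists past the threshold. Kcnb2, a Kv2 subunit gene, came next by p-value at 36 ± 2.5 against 39.8 ± 2.63 CPM (log2FC −0.14, SE 0.043, adjusted p = 0.098, edgeR). Then came Kcnma1, the large-conductance calcium-activated channel, at 68.1 ± 3.42 against 72.5 ± 2.75 CPM (log2FC −0.09, SE 0.031, adjusted p = 0.157). Of the 16 neuron markers 8 were above and 8 below 0 (median 0.002), with sums of 9786 to 9969 and 9755 to 10062 CPM. Of the 11 microglia markers tested 10 were above 0 (median 0.25), 5 of them past the threshold, with sums of 128 to 152 CPM with anti-miR-99b and 114 to 141 CPM with sc-control.

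The PFC and the co-cultures share no library, so the effects were compared in 1 fit over both (coded as the log2FC in co-culture minus that in the PFC). No member passed an adjusted p under 0.05, as 0.448% of all 18321 genes did, 15.4% having an unadjusted p under 0.05. The difference of Kcnd2 was 0.23 (SE 0.061, adjusted p = 0.0834, edgeR), and with DESeq2's Wald test, the 1 alternative where it passed, the adjusted p was 0.0457. Those of Kcnf1 (0.16, SE 0.059, adjusted p = 0.179) and Kcnh7 (0.25, SE 0.113, adjusted p = 0.278) had an unadjusted p under 0.05 too. For Kcna2, called in the co-cultures and not in the PFC, the difference was −0.04 (95% interval −0.16 to 0.08), so the effects were not shown to differ.

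**Figure D5:**
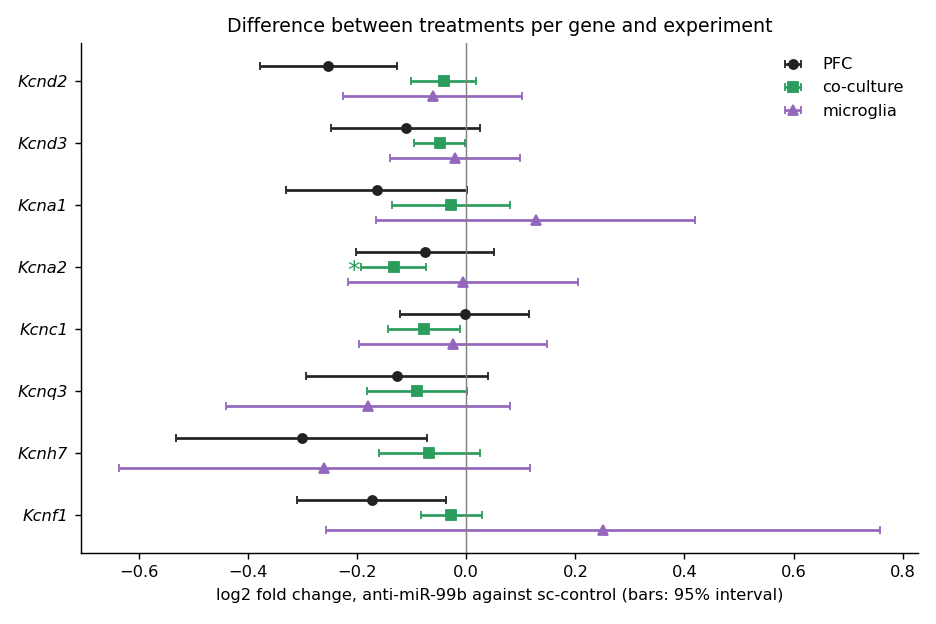
Log2 fold change of each member in the PFC, co-culture and microglia experiments, with 95% intervals from the edgeR standard error and an asterisk where the threshold of that experiment was passed. All PFC and co-culture points lie below 0, from −0.30 (Kcnh7 in the PFC) to −0.003 (Kcnc1 in the PFC, at 0.035 with upper-quartile factors), and the asterisk stands at Kcna2 in co-culture.

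In microglia treated alone, 6 of the 8 members had a log2FC below 0, beside 48.4% of the 14953 genes tested. Of the listed voltage-gated pore subunit genes that are no members, 7 of 14 did. Among the 6, Kcna2 (−0.006), Kcnd3 (−0.02) and Kcnc1 (−0.02) were near 0. No member passed an adjusted p under 0.1 with a log2FC beyond 0.1, as 0.488% of all genes tested did. The groups overlapped in every member, while they lay apart with anti-miR-99b lower in 1.8% of all genes, and at an unadjusted p under 0.05 no member and 3.04% of all genes were lower. Kcnd3, the most abundant, was at 14.6 to 15.9 CPM with anti-miR-99b and at 13.9 to 16.5 CPM with sc-control (log2FC −0.02, SE 0.061). Kcnd2 was at 5.57 to 6.48 and 6.08 to 7.30 CPM, Kcnc1 at 5.81 to 7.12 and 6.07 to 7.50 CPM, Kcna2 at 3.53 to 4.72 and 3.77 to 4.63 CPM, and Kcnq3 at 2.81 to 4.4 and 3.22 to 4.57 CPM. Kcna1, Kcnh7 and Kcnf1 had between 11 and 73 reads per library, and their intervals were wide, with a log2FC of 0.25 for Kcnf1 (95% interval −0.26 to 0.76), −0.26 for Kcnh7 (−0.64 to 0.12) and 0.13 for Kcna1 (−0.17 to 0.42).

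The members were also followed from library to library within the co-cultures, with the group means taken away (15 libraries, log2(CPM + 0.5)). These correlations describe libraries that share depth and length effects and carry no p. The closest pair was Kcnh7 and Kcnq3 (Pearson's r 0.914, Spearman's rho 0.793), with r 0.805 without the 2 libraries farthest from the median of Kcnh7. Kcnd2 followed both, at 0.859 with Kcnq3 and 0.794 with Kcnh7, but without the 2 farthest libraries these were 0.63 and 0.301, and the second rested on them. Kcnc1 was at −0.673 with Kcna1 and −0.604 with Kcnd2, but without the 2 farthest libraries these were −0.417 and −0.23, and it was at 0.292 with Kcna2. The Kv1 pair Kcna1 and Kcna2 showed hardly any relation (0.0561).

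Over all 14186 genes of at least 1 CPM, genes most like a member within the co-cultures were Purb (r 0.927) and Cdc16 (0.918) for Kcnd2, Cask (0.91) and Kcnq1ot1 (0.877) for Kcnd3, and Bmpr2 (0.923) and 4932438A13Rik (0.918) for Kcnh7. Kcnq3 was nearest to Tet1 (0.932) and Kcnh7, and Kcna2 to Grin2b (0.881), an NMDA receptor subunit gene, and Igf1r (0.877). Acsl6 was close to Kcnf1 (0.824), Kcna1 was nearest to Itgav (0.905) and Pggt1b (0.904), and Kcnc1 to Zfp827 (0.956) and Zswim1 (0.935). The level of a member also moved with the length trend of its library, with r 0.883 for Kcnq3, 0.854 for Kcnh7 and 0.782 for Kcnd2 down to 0.408 for Kcna2 and −0.504 for Kcnc1. Without the 2 libraries farthest from the median of the trend these were 0.729, 0.66, 0.435, 0.372 and −0.00911.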

How the data were processed

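Per the labels and the study's methods, the authors prepared TruSeq RNA v2 libraries from polyadenylated RNA, sequenced single reads, aligned them to mm10 with STAR 2.5.2b and counted them per gene with featureCounts 1.5.1, after bcl2fastq 2.20.2 and FastQC 0.11.5 (versions from the submitters' processing notes). The deposited values are raw counts; the annotation release and strand setting of the counting are not given in the sources used here. All columns were mapped to labelled samples (0 left over). Symbols, coordinates and lengths come from GENCODE M21 (GRCm38).

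In R 4.3.3, each experiment was fitted alone with edgeR 4.0.16 (filterByExpr, TMM, quasi-likelihood test, no covariate, Benjamini-Hochberg adjustment over all genes tested), with thresholds from the study for the PFC and co-cultures. An SE is the log2FC over the root of F. DESeq2 1.42.0, RLE and upper-quartile factors, no filter, lane, RUVs (1 factor, recomputed in R without the RUVSeq package), the replicate number, a length trend (loess, span 0.5) and libraries left out were alternatives. Scripts were tested on simulated data. The members and lists were chosen with earlier results of these data known. Genes named beside the members are list genes past a threshold, the 3 lowest p-values in the PFC and co-cultures, the 3 largest baseline differences each way, and the 2 genes most like each member. The result of 1 gene under this rule is not reported here.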

Additional observations from a re-analysis of the deposited data

Results flagged for a closer look

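In groups of 4 to 8 libraries, 4 of 32 combinations of member and group held a library whose gap to its nearest neighbour was large for the range of the group (Dixon's criterion, which flags about 1 in 20 by chance). For Kcnd2 the highest co-culture library with anti-miR-99b, number 7, was at 100.4 CPM with the next at 93.6, and the highest with sc-control, number 6, was at 105 CPM with the next at 96.6. These 2 libraries had the highest correlation with gene length of their groups, 0.0766 and 0.271. Without library 7 the log2FC of Kcnd2 in the co-cultures was −0.06, and without library 6 it was −0.02. In microglia, Kcnd2 was lowest in anti-miR-99b library 1 (5.57 CPM, the next 6.36), and Kcnc1 was highest in sc-control library 4 (7.50 CPM, the next 6.23). No member differed between experiments past the threshold of the test of the difference of effects.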

How the results depend on the processing

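The 5 members called in the baseline comparison were called with each scaling, DESeq2, no filter, the length trend removed and without each PFC library, and Kcnd3 joined them at a log2FC beyond 0.5. With the length trend removed, the baseline log2FC of Kcnd3 was 0.40 in place of 0.58, and that of Kcnq3 was −0.64 in place of −0.32. In the PFC no member was called with the main settings, 1 (Kcnh7, adjusted p = 0.0382, edgeR) with no filter on low counts and 2 (Kcnd2, adjusted p = 0.0327, and Kcnh7, 0.0317) with a RUVs factor, where 115 and 92 of all genes were called lower in place of 0, and 297 and 192 higher in place of 15. The replicate block called 43 lower and 475 higher there, with the length trend removed as well 32 and 416, the lane block 4 and 73, DESeq2 8 and 76, and leaving out 1 mouse 0 to 6 and 1 to 195. In the co-cultures 0 members were called with the lane as a block, with the length trend removed, and with the replicate block and the length trend together, and leaving out 1 library gave 0 or 1. Replicate numbers shared by both groups showed no pairing (correlations of −0.285 to 0.0476 over 8 pairs), and no library correlated best with its own number. With the replicate block, which keeps only the libraries with shared numbers, 0 members were called in each experiment, and the log2FC of Kcna2 in the co-cultures was −0.10 (adjusted p = 0.223). For the difference of effects, DESeq2 called 1 member, Kcnd2. Over all genes, calls by the same thresholds ranged from 3 to 236 lower and 54 to 284 higher in the co-cultures (90 and 137 with the main settings), and from 2 to 175 lower and 0 to 234 higher in microglia (8 and 65). The difference of effects was called below 0 in 53 genes and above 0 in 29, and by DESeq2 in 106 and 120. In the baseline comparison the count moved by over 1.5 times toward the PFC with no filter, from 3607 to 5580 genes.

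Directions near 0 turned. In the PFC the log2FC of Kcnc1 was 0.035 with upper-quartile factors, 0.040 with the length trend removed and 0.0093 with the replicate block and length trend, where that of Kcnq3 was 0.0099. With the same pair of changes Kcnh7 was at 0.014 and Kcnc1 at 0.018 in the co-cultures. In microglia Kcna2 was at 0.0042 with a RUVs factor and 0.016 with the length trend removed, and Kcnd3 at 0.019 with the replicate block and 0.050 with the length trend removed as well. The difference of effects of Kcnq3 was −0.00090 with upper-quartile factors. Leaving out single libraries, the log2FC ranged from −0.017 to 0.017 for Kcnc1 in the PFC, from −0.072 to 0.0075 for Kcna1 in the co-cultures, and in microglia from −0.056 to 0.023 for Kcnd3, from −0.059 to 0.068 for Kcna2 and from −0.081 to 0.055 for Kcnc1. The cause was not tested. Of all 544 single-gene values under the alternatives, 510 kept their direction and their side of the threshold. Few reads of Kcnf1, Kcnh7 and Kcna1 were counted in microglia, which widens their intervals.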
